A study of Rattus norvegicus with 5 samples.

Results

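The comparison set the left ventricular wall of rats with a myocardial infarction and no further treatment (MI) against that of normal rats (Normal), and it was described over 13201 of the 20646 genes listed. These were all genes with an expression of at least 1 FPKM in either of the 2 libraries, and the choice used no difference between them. FPKM counts the sequenced fragments of a gene per kilobase of its length, relative to the total of the library. The 2 libraries were part of a series of 5, each group being 1 library.

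All groups were male SD rats aged 7 to 8 weeks. The infarct was made by tying off the left anterior descending coronary artery, and the MI rats received no treatment of the heart after that. The methods of the study also give penicillin after the operation. The other 3 groups were infarcted in the same way and then given SNAP, a nitric oxide donor, by injection into the infarct area, the DTMS suture, a hollow hydrogel thread of polyvinyl alcohol and polypyrrole, filled with saline, or the S-DTMS suture, the same thread carrying SNAP. The tissue was labelled as heart. The treatment label of MI gives 1 month and those of the other groups give no time, whereas the methods of the study place the sampling at a week. No sham operation was stated for the Normal group, so that the operation and the infarct cannot be told apart. Whether tissue of several rats was pooled, and whether the piece came from the scar, its border or the remote wall, was not stated in the sources used here.

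An infarct kills cardiomyocytes in the territory of the closed artery. Inflammatory cells then clear the dead muscle, fibroblasts lay down a collagen scar, and the surviving muscle enlarges under the higher load. Heart muscle makes a small number of transcripts in very large amounts, mainly those for contraction and for mitochondrial energy supply, so that a few genes hold much of the RNA of the ventricular wall. The expression table used rat Ensembl gene identifiers, and 0 of them could be paired with a gene name through the reference tables used here. Genes were therefore described by level, length and pattern, names were not guessed, and the labelled tissue could not be checked against its marker genes. In a piece of ventricular wall, fewer cells of a type and less RNA per cell cannot be told apart.

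With 1 library a side, the differences below have no replicate check, and p-values were not given. The study's figure legend speaks of independent biological replicates for this experiment, whereas 1 library per group was analysed here, so that a library value may stand for 1 rat or for a pool. The fragments behind the FPKM values were worked out from the values themselves, which gave a depth of 17119257 fragments for Normal and 16785936 for MI, or 0.981 times that of Normal. Genes above 0 numbered 17896 in Normal and 17729 in MI. Intervals below are exact binomial 95% intervals of the ratio of fragments between the libraries, and they cover counting error only, not the variation between rats. The kit was not strand-specific, so that reads of overlapping genes on opposite strands cannot be told apart.

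Lower genes outnumbered higher ones in the infarcted wall. The change of a gene was taken as log2(FPKM + 1) in MI minus that in Normal, a scale on which changes of genes with low values look smaller than they are. A gene was counted as past the limit at a log2 change of at least 1 in either direction. On the values as deposited, 958 genes or 7.26% passed it, of which 305 were higher in MI (2.31% of all) and 653 lower (4.95%). Higher genes thus made up 31.8% of those past the limit. A log2 change of at least 2 was reached by 33 higher and 84 lower genes, and one of at least 3 by 11 higher and 26 lower genes. Many genes stood close to the limit, 118 lying within 0.1 of it on either side in the higher direction and 297 in the lower direction.

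The middle of all genes was itself shifted. The median log2 change was -0.13, with quartiles of -0.36 and 0.10, and 8647 genes had a lower FPKM in MI against 4554 with a higher one. The shift was found at every level of expression. With the genes split into 10 groups of nearly equal size by mean FPKM, the median change lay between -0.17 and -0.08 in each. The libraries were therefore also put on a common scale by the median of ratios. There, each gene is set against its geometric mean over the 5 libraries, and the median of these ratios, taken over genes above 0 in all 5, is the divisor of a library. The median change was then -0.01. On that scale 851 genes or 6.45% passed the limit, of which 357 were higher (2.7%) and 494 lower (3.74%), so that higher genes made up 42%. Of the genes past the limit as deposited, 304 of the 305 higher and 494 of the 653 lower ones also passed it on the second scale. The predominance of lower genes was thus smaller after scaling, while nearly all higher genes stayed past the limit and others joined them. The divisors were 1.1 for Normal and 1 for MI, which moves the change of nearly every gene upwards. These overlaps therefore follow from the scaling itself and are no check of single genes.

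**Figure D1:**
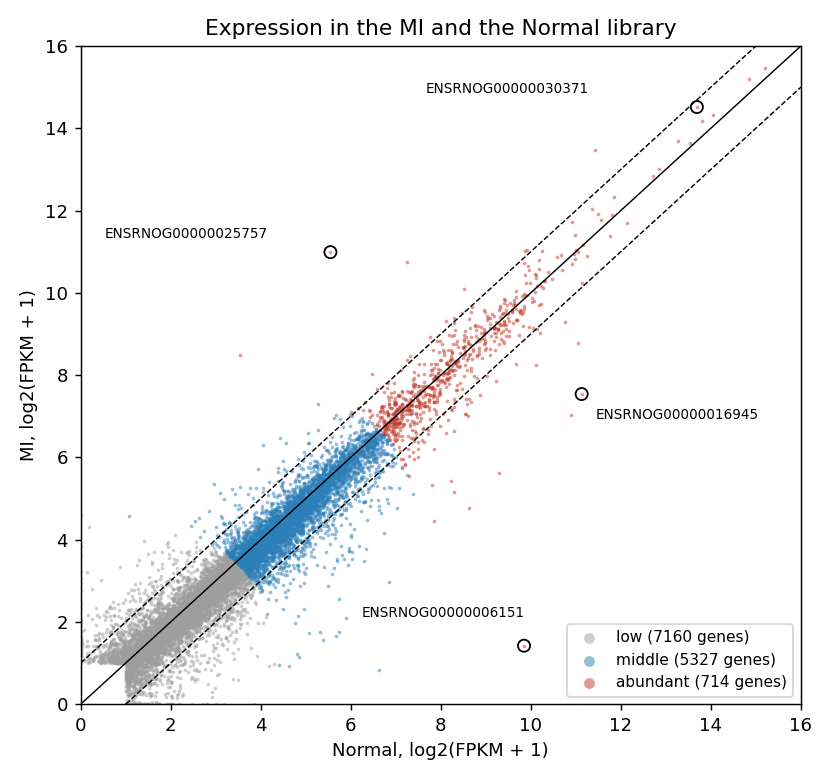
Expression of the 13201 genes as log2(FPKM + 1) in the Normal library (x axis) and the MI library (y axis), coloured by abundance class, with the line of equal values (solid) and the limits of a log2 change of 1 (dashed). Most genes lie between the limits, and the 4 circled genes lead the largest changes on the log2 scale, 5.44 and -8.43, or in FPKM, from 13196 to 23416 and from 2238 to 185.

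Genes were then sorted into 3 classes by their mean FPKM in the 2 libraries, with 714 abundant genes (at least 100), 5327 middle genes (10 to under 100) and 7160 low genes (under 10). Abundant genes were past the limit most often, with 71 genes or 9.94%, against 307 or 5.76% of the middle genes and 580 or 8.1% of the low genes, beside 7.26% of all. This order rested on the 1 added to FPKM. With 0.1 added instead, 71 abundant, 341 middle and 1076 low genes passed, so that the low class had the largest share. With 1 added, the share was lowest in the middle class in each direction. Higher in MI were 19 abundant genes (2.66%), 63 middle genes (1.18%) and 223 low genes (3.11%). Lower in MI were 52 abundant genes (7.28%), 244 middle genes (4.58%) and 357 low genes (4.99%). With median-of-ratios scaling and 1 added, the order of the classes was as first given, at 9.66%, 4.82% and 7.33%. Lower genes were the larger part in each class. In the low class, the 2 directions then nearly met, with 248 higher and 277 lower genes. The median change of the abundant genes was -0.04 as deposited and 0.09 after scaling, above that of the middle genes (-0.15 and -0.02) and of the low genes (-0.12 and -0.02).

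**Figure D2:**
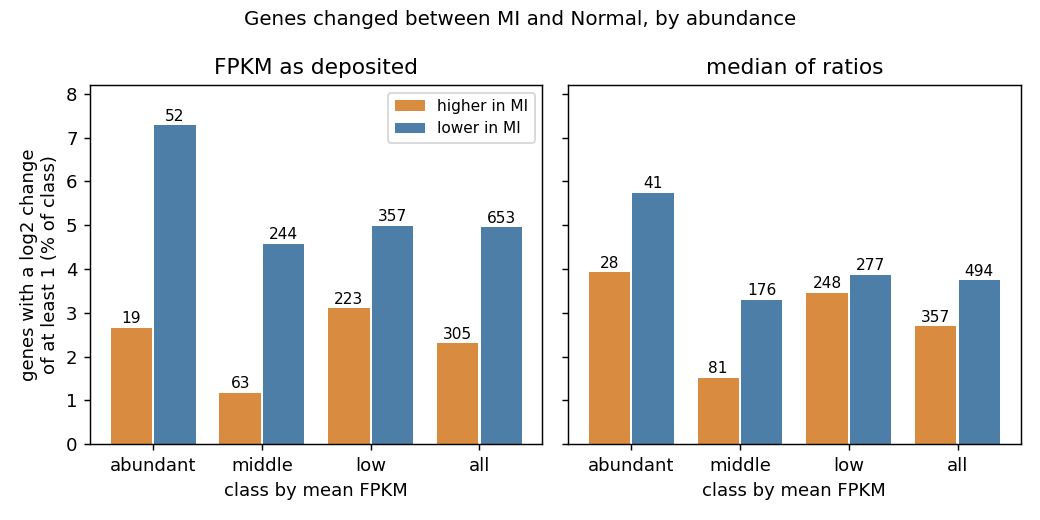
Share of the genes of each abundance class past a log2 change of 1 (y axis, % of the class) that were higher (orange) or lower (blue) in MI than in Normal, on FPKM as deposited (left) and with median-of-ratios scaling (right), with the number of genes above each bar. Lower genes outnumber higher ones in each class on both scales, as deposited with 52 against 19 abundant, 244 against 63 middle and 357 against 223 low genes.

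The classes rested on different numbers of fragments. The median gene had 5271 fragments per library in the abundant class, 818 in the middle class and 146 in the low class, and the median width of its 95% interval was 0.11, 0.29 and 0.70 on the log2 scale. For 71 of 71 abundant genes and 306 of 307 middle genes past the limit, the interval of the ratio did not hold 1. Among the low genes this was so for 413 of 580, or 71.2%, and 218 of these 580 genes had under 20 fragments in the 2 libraries together. Counts of low genes were thus the least certain, before any variation between rats.

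To give a measure of how far 2 infarcted libraries stood from each other, the DTMS library was set against the SNAP library, a pair that shares no library with the comparison. Of 12656 genes, 555 or 4.39% passed the same limit. The shares were 3.66% of the abundant, 2.87% of the middle and 5.47% of the low genes, below those of MI against Normal in each class. Both were taken as deposited, with a median change of 0.08 in this pair and -0.13 in MI against Normal. After median-of-ratios scaling, the shares of MI against Normal were 9.66%, 4.82% and 7.33%. The DTMS and SNAP pair was not scaled. A log2 change of at least 2 was reached by 4 abundant, 28 middle and 42 low genes, against 14, 48 and 55 in MI against Normal. These 2 libraries came from different treatments, so their distance is not an estimate of the spread between rats of 1 group. The pairs with S-DTMS, which also share no library with the comparison, were not run. By the number of most abundant genes holding 50% of the FPKM, SNAP with 72 and DTMS with 85 were alike, against 209 in S-DTMS. The pair therefore does not stand for the distance among all infarcted libraries.

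On the log2(FPKM + 1) scale, the largest fall and the largest rise were those of abundant genes. This was partly set by the scale. With classes set by mean FPKM, low genes cannot reach changes of either size, nor middle genes such a fall. By plain ratio a low gene rose 143-fold, from 1 fragment to 140, with an interval of 25.2 to 5679. The largest rise on the log2 scale was 44.3-fold. ENSRNOG00000006151, with a length of 781 bases, had the largest fall of all genes on the log2(FPKM + 1) scale. Its FPKM was 921 in Normal, 1.68 in MI, 7.88 in SNAP, 1.99 in DTMS and 11.1 in S-DTMS. The 4 infarcted libraries were all far below Normal. Its fragments went from 12309 to 22, a ratio 549-fold lower in MI with an interval of 362 to 876, and its log2 change was -8.43 as deposited and -8.29 after scaling. It was the 69th gene of the Normal library by FPKM and the 11545th of the MI library.

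ENSRNOG00000016945, with a length of 849 bases, lost the most FPKM of all genes. It stood at 2238 in Normal, 185 in MI, 203 in SNAP, 624 in DTMS and 84.7 in S-DTMS. Normal was again above all 4 infarcted libraries, among which DTMS was the highest. The ratio was 12.1-fold lower in MI (11.6 to 12.6), from 32530 to 2633 fragments, with a log2 change of -3.59 as deposited and -3.45 after scaling. Its place by FPKM moved from 21 to 389.

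The 8 abundant genes with the largest falls had log2 changes from -8.43 to -2.81, and their levels ran from 230 to 2238 FPKM in Normal and from 1.68 to 185 in MI. Their lengths ran from 348 to 1573 bases, beside a median of 1222 bases in the whole abundant class. Their median FPKM was 511 in Normal, 38.2 in MI, 31.5 in SNAP, 43.9 in DTMS and 27.5 in S-DTMS. Single genes departed from these medians. One went from 395 in Normal to 26.2 in MI and stood at 166 in SNAP, and another went from 1893 to 129 and stood at 20.6 in SNAP and 6.4 in S-DTMS. A pair of them was above Normal in S-DTMS. One went from 626 in Normal to 48 in MI and stood at 738 in S-DTMS, and the other went from 311 to 34.8 and stood at 598 there.

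ENSRNOG00000025757, with a length of 6028 bases, had the largest rise on the log2(FPKM + 1) scale. Its FPKM was 45.8 in Normal, 2030 in MI, 714 in SNAP, 589 in DTMS and 33.1 in S-DTMS. MI was the highest of the 5 libraries, SNAP and DTMS lay between, and S-DTMS was below Normal. The fragments went from 4727 to 205410, 44.3-fold higher in MI (43.1 to 45.6), with a log2 change of 5.44 as deposited and 5.57 after scaling. It moved from place 1676 to place 26 by FPKM.

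The next rises in the abundant class took other courses in the treated groups. The second gene went from 10.6 FPKM in Normal to 356 in MI and stood at 129 in SNAP, 263 in DTMS and 488 in S-DTMS, so that all 4 infarcted libraries were above Normal. The third went from 150 to 1729 and stood at 2558 in SNAP, 442 in DTMS and 285 in S-DTMS. The fourth went from 2738 to 11287, stood at 10788 in SNAP and 10877 in DTMS, and was at 3018 in S-DTMS, close to Normal. From there the rises were smaller, and the eighth had a log2 change of 1.15. The median FPKM of these 8 genes was 183 in Normal, 862 in MI, 319 in SNAP, 313 in DTMS and 249 in S-DTMS.

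**Figure D3:**
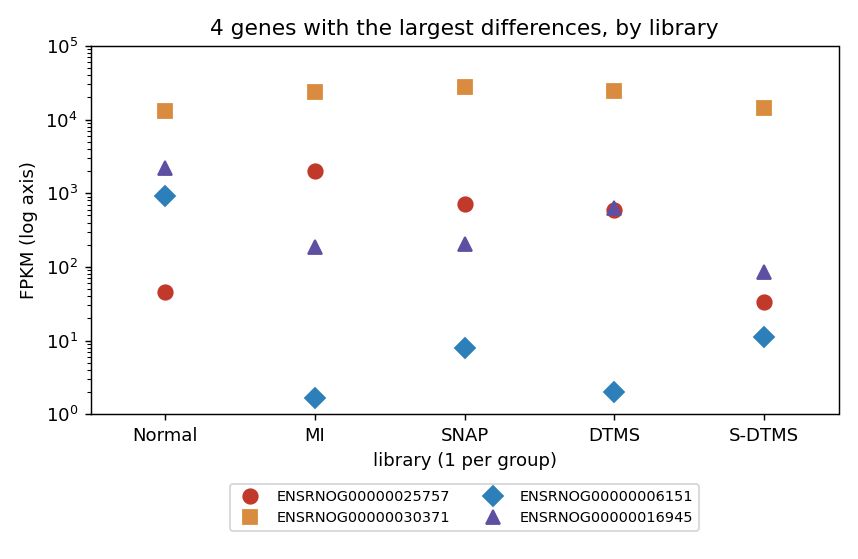
FPKM (y axis, log axis) of the 4 genes with the largest rise and fall on the log2 scale and in FPKM, in each of the 5 libraries (x axis, 1 library per group, so no error bar). Both genes that fell are above all infarcted libraries in Normal, at 921 and 2238, while ENSRNOG00000025757 is at 2030 in MI and at 33.1 in S-DTMS.

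In FPKM rather than in folds, the gains were concentrated and the losses spread out. The genes higher in MI gained 98059 FPKM together and the lower ones lost 74843. Only 10 genes made up 50% of the gain, whereas 192 genes made up 50% of the loss. With median-of-ratios scaling, these numbers were 12 and 124. The abundant class took 87.1% of the gain and 54.5% of the loss. The middle class took 10.1% of the gain and 37.2% of the loss, and the low class 2.87% and 8.3%.

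The 8 genes that gained most held 48.1% of the whole gain. ENSRNOG00000030371, with a length of 684 bases, gained the most, with an FPKM of 13196 in Normal, 23416 in MI, 27877 in SNAP, 24181 in DTMS and 14478 in S-DTMS. It was higher in MI, SNAP and DTMS than in Normal, and S-DTMS lay just above Normal. Its log2 change of 0.83 (0.96 after scaling) did not reach the limit, and the ratio was 1.77 with an interval of 1.76 to 1.79. Of the 8 genes that gained most, 2 were past the limit, 6 were among the 10 most abundant genes of the Normal library and 7 among those of MI. Their median FPKM was 13775 in Normal, 19429 in MI, 19388 in SNAP, 18668 in DTMS and 11160 in S-DTMS. Of the 8 genes that lost most, with FPKM differences from -2053 to -839, 5 were past the limit.

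The top of the 2 libraries consisted of largely the same genes. Of the 10 most abundant genes of each library, 9 were in both lists, or 90% of each. All 9 were higher in MI on both scales, by log2 changes from 0.10 to 0.83 as deposited. Of the 100 most abundant genes of each library, 79 were in both lists, with a median change of 0.10. Of these 79, 47 were higher in MI as deposited and 58 after scaling.

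The infarcted library was accordingly more concentrated. The 10 most abundant genes held 24.4% of all FPKM in Normal and 30.6% in MI, and the 100 most abundant held 43.6% and 50.2%. Summed from the top, 166 genes reached 50% of the FPKM in Normal and 99 did in MI. The treated libraries lay outside this range, SNAP with 72 genes and DTMS with 85 below it and S-DTMS with 209 above it. The abundant class as a whole went from 68.7% to 73.1% of the library, the middle class from 26% to 22.3% and the low class from 5.13% to 4.42%. FPKM is a value relative to the library total, to which the top genes contribute. With totals that did not include the 10 most abundant genes, the median change of all genes was -0.05 instead of -0.13.

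**Figure D4:**
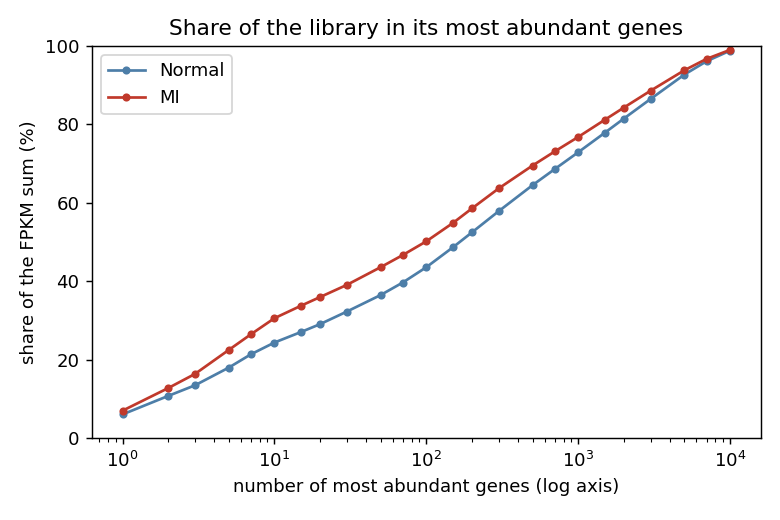
Share of the summed FPKM of a library (y axis, %) held by its most abundant genes, against their number (x axis, log axis), for Normal (blue) and MI (red). The MI line lies above the Normal line from the first gene, at 7.03% against 6.08%, to the first 1000, at 76.8% against 72.9%.

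Of the middle genes past the limit, most were lower in MI, with 244 against 63 as deposited and 176 against 81 after scaling. The class as a whole had a median change of -0.15 as deposited and -0.02 after scaling. As deposited, a log2 change of at least 2 was reached by 7 higher and 41 lower genes of its 5327. Over all 13201 genes these numbers were 33 and 84. The 8 largest falls had log2 changes from -5.80 to -3.70. The first of them went from 97.6 FPKM in Normal to 0.771 in MI and stood at 2.75 in SNAP, 3.48 in DTMS and 7.74 in S-DTMS. The seventh went from 58.3 to 3.31 and reached 335 in S-DTMS, above Normal. The median FPKM of the 8 genes was 55.5 in Normal, 2.29 in MI, 3.43 in SNAP, 3.9 in DTMS and 5.7 in S-DTMS, so that as a group they were low in all 4 infarcted libraries.

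The 8 largest rises of the middle class had log2 changes from 1.91 to 4.61. The first of them was listed at 0 in Normal, SNAP, DTMS and S-DTMS and had 193 fragments in MI, which is at least 65.6-fold higher against a floor of 3 fragments in the Normal library. The exact 95% interval, which also holds the counting error of the MI library, began at 52.9-fold. It was thus seen in 1 of the 5 libraries. The second went from 1.1 FPKM in Normal to 23 in MI and stood at 4.69 in SNAP, 2.22 in DTMS and 6.11 in S-DTMS. The median of the 8 genes was 7.17 in Normal, 37 in MI, 17 in SNAP, 5.49 in DTMS and 10.4 in S-DTMS.

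The low genes gave the most genes past the limit, but with the least certain changes, and on a scale that makes them look smaller. A log2 change of at least 2 was reached by 22 higher and 33 lower genes. Of the 8 largest rises, with log2 changes from 2.78 to 4.14, 6 were listed at 0 in Normal, and their median length was 100 bases. The first of the 8 had 1 fragment in Normal and 140 in MI, or 0.132 and 18.9 FPKM. Its FPKM was 1.17 in SNAP and 3.12 in DTMS, and it was listed at 0 in S-DTMS. Of the 8 largest falls, from -3.86 to -2.80, 5 were listed at 0 in MI. The third of them was better covered, with 992 fragments in Normal and 51 in MI, and its FPKM of 17.2 in Normal and 0.9 in MI stood beside 2.15 in SNAP, 1.1 in DTMS and 15.7 in S-DTMS.

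Genes passing the filter that were listed at 0 in 1 library were nearly all thinly covered, and most were short. The filter had a part in this, since a few fragments reach 1 FPKM only in a short gene at this depth. Lengths and fragments were worked out as the smallest that fit the values. Both can thus be too small, above all for genes seen in few libraries. Of the genes passing the filter, 59 were at 0 in Normal, with 1 to 193 fragments in MI and a median of 3. Another 91 were at 0 in MI, with 1 to 48 fragments in Normal and a median of 3. Their median lengths were 105 and 102 bases. At least 20 fragments were reached by 3 of the 59 and 6 of the 91, and the largest fall among the latter was at least 15.7-fold against the same floor, with an exact 95% interval that began at 12.3-fold. All 59 and all 91 passed the limit, since an FPKM of at least 1 against 0 does so by construction, and they are part of the 305 higher and 653 lower genes. For the typical gene of these, with 3 fragments in 1 library as worked out here and 0 in the other, a difference was not detectable at this depth.

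Gene length, as worked out here, went with the share of genes past the limit. These lengths can be too small, above all for genes seen in few libraries, which can place such genes among the shortest. The part of this was not tested. The genes were split by length into 5 groups of nearly equal size. Of the shortest group, from 31 to 1139 bases, 15.9% passed it, against 6.21%, 5.27%, 4.5% and 4.44% in the groups of increasing length. The median fragments per gene were 73.5, 320, 365, 418 and 603 in the same order, so that shorter genes were also less covered. The part of coverage in this order was not tested. The 59 genes at 0 in Normal and the 91 at 0 in MI pass the limit by construction, with median lengths of 105 and 102 bases. They were not removed from these shares. The middle of the distribution did not move with length, the median change lying between -0.14 and -0.11 in each group. In the low class, the median length was 768 bases for the higher genes and 837 for the lower genes, against 2396 for all genes of the class. In the middle class the medians were 1613 bases for the higher genes, 2017 for the lower genes and 2047 for all. In the abundant class the higher genes were longer than the class, at 1489 bases against 1222, and the lower genes had a median of 1109.

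The genes past the limit were followed into the other 3 infarcted libraries. These genes were chosen by their values in MI and Normal, so that an extreme MI or Normal value was partly set by the choice, and the counts are given as a description. The median FPKM of the 305 higher genes was 1.41 in Normal, 5.78 in MI, 2.49 in SNAP, 2.99 in DTMS and 2.26 in S-DTMS. That of the 653 lower genes was 10.9 in Normal, 3.32 in MI, 4.58 in SNAP, 4.66 in DTMS and 7.01 in S-DTMS. In both sets, on these values as deposited, the treated libraries lay between Normal and MI. Genes chosen for a gap between MI and Normal favour such a place for any other library, so it is no sign of a treatment effect. SNAP and DTMS were nearer to MI than to Normal among the lower genes, and S-DTMS was about midway. After median-of-ratios scaling, the 494 lower genes had medians of 9.61 in Normal, 2.71 in MI, 4.13 in SNAP, 3.82 in DTMS and 5.45 in S-DTMS.

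The abundant genes among them moved over a wide range. The 19 higher ones had a median FPKM of 152 in Normal, 482 in MI, 402 in SNAP, 294 in DTMS and 197 in S-DTMS, and the 52 lower ones of 299, 99.8, 127, 120 and 164 in the same order. In the middle class the medians were 11.1, 34.2, 17.9, 16.4 and 15.3 for the 63 higher genes and 33.9, 11.9, 15.9, 14.9 and 27.9 for the 244 lower genes. In the low class they were 0.642, 3.76, 1.59, 1.66 and 1.17 for the 223 higher genes and 3.9, 0.742, 1.19, 1.26 and 2 for the 357 lower genes. On the values as deposited, the 3 treated libraries lay between Normal and MI in each class and direction, a place that the choice of genes favours. With median-of-ratios scaling this did not hold for the abundant higher genes, whose median was 156 in S-DTMS, below the 170 of Normal, and 468 in MI. The divisors were 1.1 for Normal, 1 for MI, 1.13 for S-DTMS, 0.88 for SNAP and 0.93 for DTMS. Among the lower genes after scaling, the abundant class stood at 134 in S-DTMS, 161 in SNAP and 123 in DTMS. In the same order, the middle class stood at 20.4, 17.5 and 15.5 and the low class at 1.55, 1.19 and 1.12. Every treated library was set beside the same Normal and MI libraries, so these medians are not separate comparisons.

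**Figure D5:**
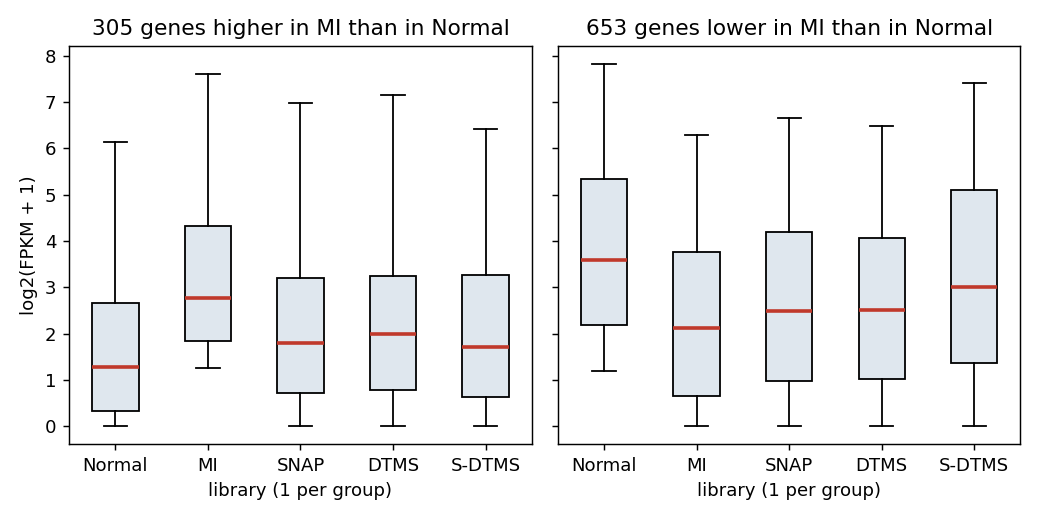
Expression as log2(FPKM + 1) (y axis) of the 305 genes higher (left) and the 653 genes lower (right) in MI than in Normal, in each of the 5 libraries (x axis, 1 per group). Red lines are medians over genes, boxes the quartiles and whiskers the 5th and 95th percentiles. The medians of SNAP, DTMS and S-DTMS lie between those of Normal and MI in both panels, which the choice of genes by MI and Normal favours.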

How the data were processed

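RNA of the left ventricular wall was analysed in 1 Normal and 1 MI library, with the SNAP, DTMS and S-DTMS libraries beside them. Groups were taken from the sample labels. The authors deposited FPKM values per gene. The submitters' processing notes name HTSeq and mm9, a mouse build, while the identifiers are those of rat, and the aligner and annotation are not given in the sources used here. The authors called differential genes with edgeR, a step that needs replicates and was not repeated.

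Fragments were worked out from the FPKM steps. Whole fragments (tolerance 0.002) were found for 20304 genes, the other 342 being at 0 in each library, and 97.4% of 2683 genes gave whole lengths. A gene whose fragments and length share a divisor can be given too few of both. Fragments served for depth (16731024 to 17379225 over the 5 libraries), length and intervals. The median-of-ratios scaling used 15467 genes. The scripts were tested on simulated data.

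The genes, classes, lists and named genes were chosen with earlier results of these data known. The rule for named genes took the 8 largest changes on both scales per class and direction and the 8 largest gains and losses in FPKM. Only the first gene of 4 of these lists is given by identifier, a choice made after the values were seen. The planned gene lists and cell type markers were not analysed here for want of gene names, and no sequence was printed for the same reason. Alternatives were a log2 change of at least 2, a minimum FPKM of 5 or of 20 fragments, removal of the filter, a pseudocount of 0.1 in place of 1, and other scalings. Computations ran in Python 3.11.15 with pandas 2.3.3, SciPy 1.17.1 and NumPy 2.4.6, and figures were drawn with Matplotlib 3.10.9.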

Additional observations from a re-analysis of the deposited data

How the results depend on the processing

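Of 147 values recomputed under 11 settings, 108 stayed alike and 39 moved. Alike meant within 1.5 times the reported count, within the 95% interval of 29 to 34.9 for the percent higher, or within 0.02 for the median change. A turn of direction was looked for only in the percent higher and the median change, and 0 of these turned. Counts were not checked for it. Relative to the median change, 271 low genes were higher and 258 lower, against 223 and 357 as reported. With a pseudocount of 0.1, 1488 genes passed the limit, 491 higher and 997 lower, 1076 of them low genes. With an FPKM of at least 5, 605 passed, 160 of them higher (26.4%), with 227 low genes. At a log2 change of at least 2, 117 passed, 33 higher (28.2%) and 84 lower, with 14 abundant, 48 middle and 55 low genes. The low class gave 920 genes as TPM, where values are larger and the pseudocount weighs less, and 362 with at least 20 fragments. The percent higher was 42 and 40.5 after the median of ratios over 5 and over 2 libraries, 37.7 with totals without the 10 most abundant genes, and 44.3 relative to the median change, an alternative chosen after seeing the data. The median change was -0.01 and -0.02 under the 2 median-of-ratios scalings, -0.05 without a filter, -0.18 as TPM and -0.05 with totals without the 10 most abundant genes. No filter moved no count, since genes under 1 FPKM on both sides stay below the limit by construction. No paired analysis was possible because there was 1 library per group. The planned medians of gene lists were not run, since names were lacking. Depth limited the low genes, whose median was 146 fragments, and the missing replicates limit every comparison.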
